A study of Mus musculus with 9 samples.

Results

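Axin2, Nkd1, Nkd2, Notum, Lgr5, Lef1, Tcf7, Rnf43, Znrf3 and Dkk1 are genes that Wnt signalling switches on and whose products act back on the pathway. They were taken as a group from the arrays by matching each probe's gene name, or the accession or older synonym beside it, to the current symbol of a member. All 10 of 10 genes were found, as 18 of the 41174 probes, from an array with 27573 distinct names. Of all probes, 8148 matched no current gene and kept their name on the array, some of these being transcript identifiers. Each such name is counted as a gene below. A probe is a 60-base DNA strand that binds 1 stretch of a transcript. Notum was printed under its older clone name, and the name Tcf1 on the array belonged by its accession to another gene and was left out.

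When a Wnt protein binds a Frizzled receptor and its LRP co-receptor, beta-catenin escapes destruction, enters the nucleus and joins TCF/LEF factors at target genes. Many targets close a loop. Axin2 rebuilds the destruction complex, Nkd1 and Nkd2 bind Dishevelled, Notum removes a lipid from Wnt proteins, Dkk1 blocks the LRP co-receptor, and Rnf43 and Znrf3 mark Frizzled receptors for removal. Lgr5 is a receptor for R-spondins, which hold Rnf43 and Znrf3 back, and Lef1 and Tcf7 are themselves TCF/LEF factors. In mammary tumours driven by Wnt-1, such genes are commonly used as a readout of pathway activity.

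RNA came from mouse mammary tumour cells, freshly isolated, from which cells without green fluorescent protein were sorted. The labels give both MMTV-Wnt-1 and MMTV-Her2, transgenes that express Wnt-1 or the receptor Her2 from a mammary tumour virus promoter, as the source of every array, so these models could not be separated. There were 5 arrays of cells treated with Fzd8-CRD, the Wnt-binding domain of Frizzled 8 in soluble form, and 4 control arrays, each described as a biological replicate. The treatment field names the inhibitor for the controls too, so the treatment of the controls stays unknown here, as do dose, time and the age of the animals. What carried green fluorescent protein is not given either, and the series' title names host cells beside tumour cells. Each array was hybridised with Cy5-labelled RNA of the sorted cells and a Cy3-labelled pooled reference, which the labels describe in conflicting ways. The log2 ratio is Cy5 over Cy3, and lies above 0 where the tumour cells gave more RNA than the reference. All differences below subtract control from Fzd8-CRD in log2 units, where 1 unit is a factor of 2, with the standard error (SE) of limma's fit and p-values adjusted over all probes tested.

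The 4 control arrays shared 1 slide and 1 scan day, and the 5 arrays of treated cells came from 4 different slides and 2 different scan days, so slide, scan day and group cannot be told apart. The share of probes with a Cy5 signal well above background was smaller with Fzd8-CRD (52.5% to 60.0%) than on the controls (63.8% to 70.8%), and likewise in Cy3 (58.7% to 65.7% against 71.8% to 74.9%). Control replicate 2 stood apart, with a correlation of 0.602 to 0.727 to the other 8 arrays over all tested probes, against 0.882 to 0.977 between other arrays of 1 group. Its mean log2 ratio over 16 measured T cell markers was 1.28, against -0.83 to -0.70 on the other controls and -0.83 to -0.56 with Fzd8-CRD. Of these markers 16 of 16 were above background on every control and 9 to 12 of 16 with Fzd8-CRD. The same array was the highest of all 9 for macrophage markers (0.84 against -0.22 to -0.05 on the other controls and -0.65 to -0.18 with Fzd8-CRD), for fibroblast markers (1.01 against -1.65 to 0.26 and -1.64 to -0.31) and for the 5 measured B cell markers (-0.79 against -1.57 to -1.33 and -1.56 to -1.23). Between the groups 7.99% of all genes tested fell and 6.85% rose at an adjusted p under 0.05, each gene read by its brightest probe. Of the 16 T cell markers 1 rose and 1 fell, and of the 5 B cell markers 0 rose and 0 fell. With 1 of 12, the macrophage markers fell at about the share of all genes. Of the fibroblast markers 2 of 10 fell, with a median difference of -1.17. Endothelial markers averaged 2.57 to 3.28 on the controls, highest on control replicate 2, and 0.45 to 1.89 with Fzd8-CRD, and 13 of 14 fell. Mammary epithelial markers averaged 3.88 to 4.09 on the controls and 3.20 to 4.00 with Fzd8-CRD, where 1 of 18 rose and 2 fell. Control replicate 2 was the highest here too, by a small margin (4.09 against 4.08 on control replicate 1). The part of these markers in the results below was not tested. In such mixed samples fewer cells of a type and less RNA per cell cannot be told apart.

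No member probe passed the threshold in the log2 ratio. A probe was tested where 4 or more arrays gave a Cy5 signal well above background, which held for 14 member probes, and of these 0 rose and 0 fell (limma, Benjamini-Hochberg, adjusted p 0.0673 to 0.963), where 14.6% of the 26835 probes tested were called, 6.77% higher and 7.84% lower. By unadjusted p under 0.05, 5 of the 14 passed, against 32.2% of all probes. The difference lay below 0 for 9 probes and above 0 for 5, with a median of -0.11 against -0.06 over all probes. The values of the groups were apart for 1 probe of 14, where 19.2% of all probes were apart. With slide or scan day as a random block 4 member probes passed in each fit, those of Nkd1 (-1.27 and -1.28), Nkd2 A_52_P212782 (-0.73 and -0.79), Lef1 A_51_P501145 (-0.77 and -0.75) and Rnf43 A_51_P337101 (0.44 and 0.42). The correlations estimated within slide and within scan day were negative, at -0.16 and -0.12, and the number of all probes called went from 3923 to 8049 (30.0%) and 8468 (31.6%). As no slide or scan day held both groups, such a fit cannot separate the block from the group. No conclusion is drawn from these calls.

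**Figure D1:**
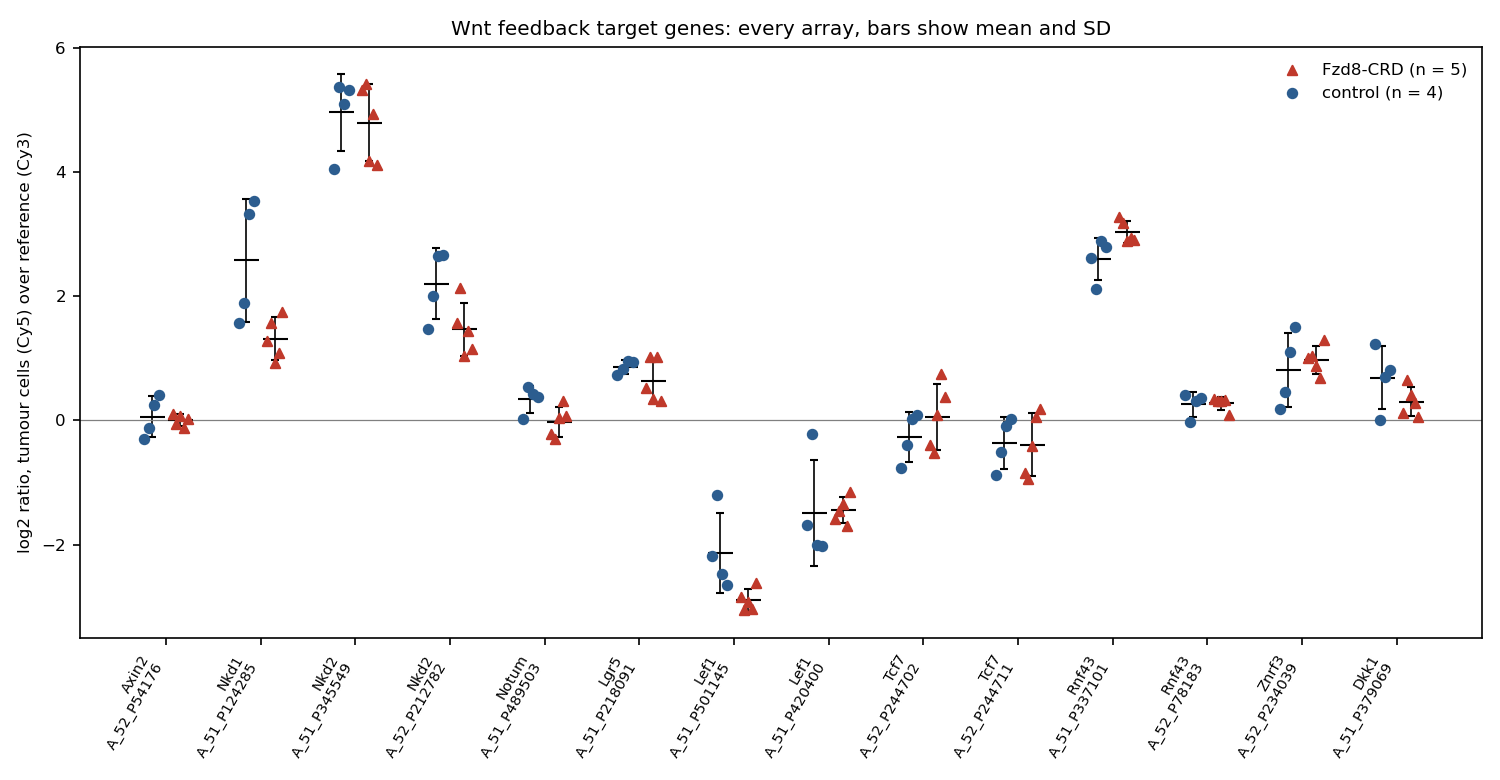
Log2 ratio of tumour cells (Cy5) over reference (Cy3) for the 14 tested probes, with 1 point per array (circles, 4 controls; triangles, 5 Fzd8-CRD) and bars at the mean with SD. The Nkd1 controls spread from 1.57 to 3.54 while the Fzd8-CRD arrays lie between 0.92 and 1.75, and 1 control array stands above the rest for both Lef1 probes.

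The 2 dyes gave different pictures of the same genes. In Cy5 alone, the channel of the tumour cells, 1 member probe of 14 rose, that of Rnf43, and 0 fell, where 17.2% of all probes were called and 9.17% were called higher. The groups were apart in Cy5 for 3 member probes, against 21.9% of all probes. In Cy3 alone, the channel of the reference, 7 member probes were higher and 1 was lower on the Fzd8-CRD arrays, where 57.8% of all probes were called, 26.5% higher and 31.3% lower. The groups were apart in Cy3 for 7 member probes, against 49.7% of all probes. The median member difference was -0.11 in the ratio, 0.17 in Cy5 and 0.15 in Cy3. The labels do not say whether both groups had the same reference RNA.

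**Figure D2:**
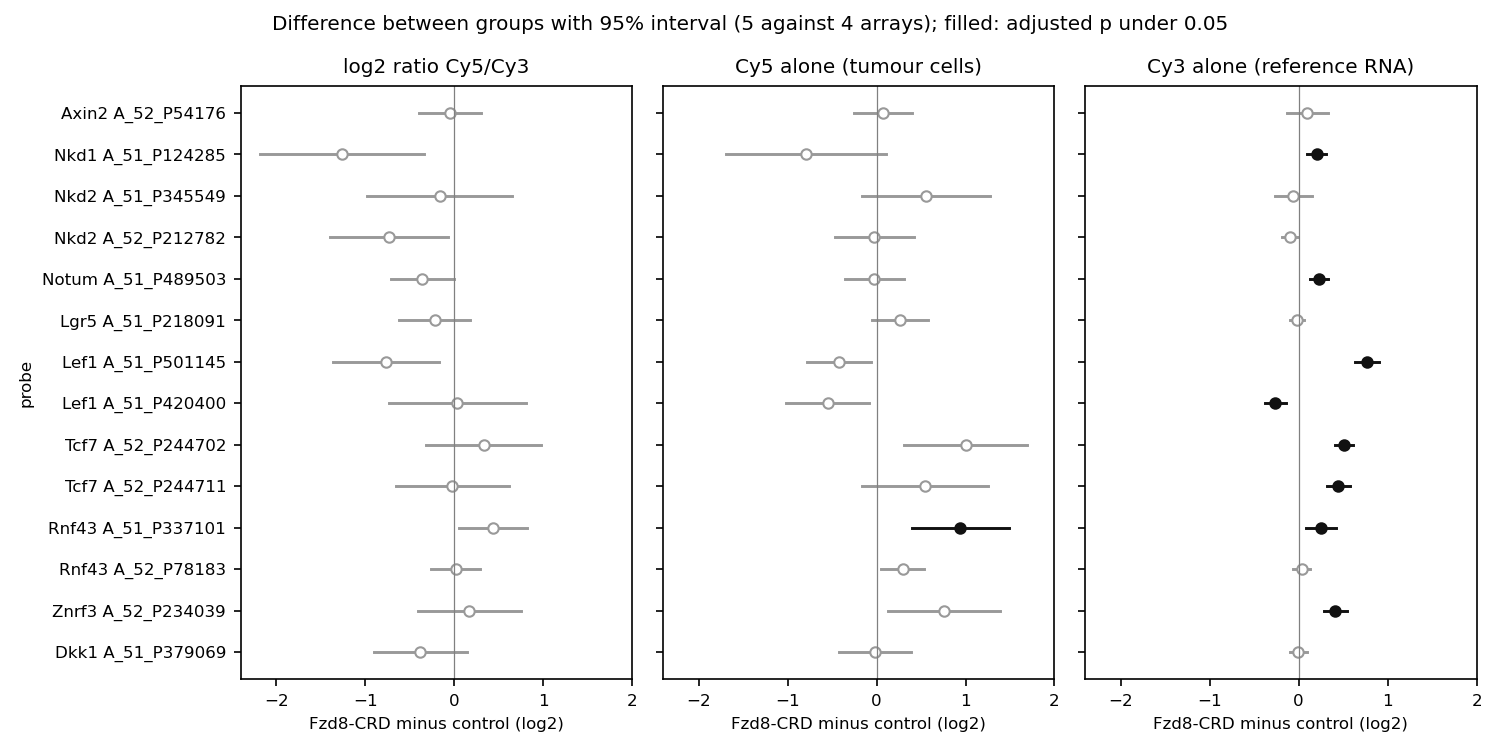
Difference between the groups (Fzd8-CRD minus control, log2) of each tested probe in the ratio, in Cy5 alone and in Cy3 alone, with 95% intervals and filled points where the adjusted p was under 0.05. The ratio panel has 0 filled points, Cy5 has 1 (Rnf43) and Cy3 has 8, with opposite signs for the Lef1 probes.

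Of the inhibitors inside the cell, Nkd1 showed the largest log2 ratio difference of the member probes in the main setting and did not pass. Its log2 ratio was 1.28, 1.58, 0.92, 1.08 and 1.75 on Fzd8-CRD replicates 1 to 5 and 1.57, 1.89, 3.33 and 3.54 on control replicates 1 to 4. Control replicates 3 and 4 were high, and control replicate 1 lay within the Fzd8-CRD values, so the groups overlapped. The mean was 1.32 ± 0.34 (SD, n = 5) with Fzd8-CRD and 2.58 ± 1.00 (SD, n = 4) in controls, a difference of -1.26 (SE 0.41, 95% interval -2.18 to -0.34, adjusted p = 0.0673). Without control replicate 1 the difference was -1.60 (adjusted p = 0.0274) and without control replicate 2 it was -1.49 (adjusted p = 0.0426), both past the threshold, whereas without control replicate 4 it was -0.94 (adjusted p = 0.147). In Cy5 alone the difference was -0.79 (SE 0.40, adjusted p = 0.193), and the reference was 0.20 higher on the Fzd8-CRD arrays (adjusted p = 0.00478).

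Nkd2, the paralogue of Nkd1, had 2 tested probes whose targets lie 117 bases apart. On probe A_52_P212782 the log2 ratio was 1.57, 2.14, 1.04, 1.45 and 1.16 with Fzd8-CRD and 1.48, 2.01, 2.66 and 2.67 in controls. The groups overlapped, with control replicates 3 and 4 above every Fzd8-CRD array, and the difference was -0.74 (SE 0.30, adjusted p = 0.121). On probe A_51_P345549 the log2 ratio ran from 4.13 to 5.43 with Fzd8-CRD and from 4.05 to 5.38 in controls, a difference of -0.17 (SE 0.36, adjusted p = 0.777). Neither probe passed in Cy5 alone, at -0.02 (adjusted p = 0.944) for A_52_P212782 and 0.56 (adjusted p = 0.241) for A_51_P345549. The sign of the Nkd2 difference depended on how the ratio was made. With the scanner's own log ratio the differences were 1.65 (adjusted p = 0.00576) for A_52_P212782 and 1.10 (adjusted p = 0.0221) for A_51_P345549, both past the threshold and higher with Fzd8-CRD. The reference signal of A_52_P212782 cleared background on 3 of 4 controls and 0 of 5 Fzd8-CRD arrays, so that its ratio divides by a signal near background. Leaving out control replicate 1 brought A_52_P212782 past the threshold at -0.98 (adjusted p = 0.0464).

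Axin2, often the first gene read for Wnt activity, had 1 probe, well above background in Cy5 on 3 of 5 Fzd8-CRD and 3 of 4 control arrays. Its log2 ratio was 0.10, -0.05, 0.07, -0.11 and 0.03 with Fzd8-CRD and -0.30, -0.13, 0.25 and 0.42 in controls. The Fzd8-CRD arrays fell inside the range of the controls, which spread on both sides of 0. The means were 0.01 ± 0.09 (SD, n = 5) and 0.06 ± 0.33 (SD, n = 4), and the difference was -0.05 (SE 0.16, 95% interval -0.40 to 0.30, adjusted p = 0.838). In Cy5 alone it was 0.07 (adjusted p = 0.741). The reference signal of this probe cleared background on 1 of 5 Fzd8-CRD and 4 of 4 control arrays. The normexp offset understates differences of such dim probes. The scanner's log2 ratio ran from -1.35 to 1.14 with Fzd8-CRD and from -1.29 to 0.88 in controls, a difference of 0.36 (limma, adjusted p = 0.694). The interval above thus holds for the main setting only and does not bound the change of Axin2. The middle 30 bases of the probe (positions 16 to 45) are shown because this is the only Axin2 probe of the array and is poor in G and C (25.0% of its 60 bases, lower than all but 2.0% of probes, where the median was 40.0%).
Axin2 A_52_P54176: taaattatgcattataaagagttcatttaa

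Of the secreted inhibitors, Notum had 1 tested probe of 2. The tested probe, A_51_P489503, gave -0.21, -0.30, 0.04, 0.31 and 0.07 with Fzd8-CRD and 0.02, 0.54, 0.42 and 0.37 in controls. The controls other than replicate 1 lay above every Fzd8-CRD array. The difference was -0.36 (SE 0.16, adjusted p = 0.154), while Cy5 alone differed by -0.02 (adjusted p = 0.926) and the reference was 0.23 higher on the Fzd8-CRD arrays (adjusted p = 0.00152). The other probe, A_52_P629748, is annotated on the opposite strand, was well above background in Cy5 on 1 array only, control replicate 3, and was not tested.

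Dkk1 had 2 probes whose targets lie 895 bases apart, and 1 was tested. Probe A_51_P379069 gave 0.11, 0.65, 0.40, 0.29 and 0.06 with Fzd8-CRD and 1.24, 0.01, 0.70 and 0.81 in controls. Control replicate 2 was the lowest of all 9 arrays, and the other controls lay above every Fzd8-CRD array. The difference was -0.38 (SE 0.23, adjusted p = 0.282), and without control replicate 2 it was -0.61 and past the threshold (adjusted p = 0.0442). In Cy5 alone it was -0.02 (adjusted p = 0.944). The probe was well above background in Cy5 on 3 of 5 Fzd8-CRD and 3 of 4 control arrays and in Cy3 on none, so both channels were near background. The other probe, A_52_P508391, was not well above background in Cy5 on any array.

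Of 7 members with a promoter sequence in RefSeq, Dkk1 and Lef1 held letters of the TCF/LEF type. The windows run from 250 bases before to 50 bases after each start site (GRCm38.p6), and were searched on both strands for the 7 letters CTTTGAA and for their variants ending otherwise, which are CTTTGAT, then CTTTGTA, then CTTTGTT. Of all genes with such a window 18.9% held at least 1 match, in 16.9% of windows. The Dkk1 window held 2 matches and 1 of 4 Lef1 windows held 1, while those of Axin2, Nkd1, Nkd2, Tcf7 and Rnf43 held none. The matches are shown in capitals, as a description of these letters and not of a bound site.
Dkk1 chr19:30549595-30549624, minus strand: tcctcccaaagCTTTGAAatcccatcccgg
Dkk1 chr19:30549576-30549605, minus strand: tcccatcccggCTTTGTTgtcttccctgag
Lef1 chr3:131156136-131156165, plus strand: caacctcagaaTACAAAGtaggattgcatt

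Of the receptor-level genes, Rnf43, a membrane ubiquitin ligase, held the 1 member probe that rose in the tumour channel. On probe A_51_P337101 log2 Cy5 was 12.11, 11.60, 11.62, 11.72 and 11.96 with Fzd8-CRD and 10.95, 10.06, 11.26 and 11.18 in controls. All 5 Fzd8-CRD arrays lay above all 4 controls, and control replicate 2 was the lowest. The Cy5 difference was 0.94 (SE 0.24, 95% interval 0.40 to 1.49, adjusted p = 0.029). It did not pass when arrays were centred on their medians in place of quantile normalization (0.46, adjusted p = 0.381), where the other Rnf43 probe was the one that passed, nor without Fzd8-CRD replicate 1, 4 or 5 or control replicate 1 (adjusted p 0.0511 to 0.0670), and without control replicate 2 it was 0.67 (adjusted p = 0.0178).

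The log2 ratio of the same Rnf43 probe was 3.28, 3.19, 2.89, 2.94 and 2.91 with Fzd8-CRD and 2.62, 2.13, 2.89 and 2.79 in controls. The groups were apart only in the digits beyond these, since the lowest Fzd8-CRD array and the highest control both round to 2.89. The means were 3.04 ± 0.18 (SD, n = 5) and 2.61 ± 0.34 (SD, n = 4), with a difference of 0.43 (SE 0.17, 95% interval 0.05 to 0.82, adjusted p = 0.115). The reference was 0.25 higher on the Fzd8-CRD arrays (adjusted p = 0.0147).

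The second Rnf43 probe, A_52_P78183, targets a stretch 4985 bases upstream and was near background in the reference (well above it on 0 of 5 and 2 of 4 arrays). Its log2 ratio was 0.34, 0.31, 0.31, 0.33 and 0.09 with Fzd8-CRD and 0.40, -0.03, 0.32 and 0.36 in controls, a difference of 0.02 (SE 0.12, adjusted p = 0.937). In Cy5 alone the groups were apart (6.78 to 6.91 against 6.35 to 6.69), with a difference of 0.30 that did not pass (adjusted p = 0.0855), but passed with median centring (0.47, adjusted p = 0.0295) and, at 0.30, with no filter on dim probes (adjusted p = 0.0498). The Rnf43 probes differed from each other in their group difference by 0.42 in the ratio (two-sided exact permutation, p = 0.00794, the smallest that the splits of 9 arrays allow, adjusted p = 0.0159 over 4 probe pairs) and by 0.65 in Cy5 (exact permutation, adjusted p = 0.0159). With the scanner's log ratio the gap in the ratio turned to -0.97 (exact permutation, adjusted p = 0.0741), and A_52_P78183 itself passed at 1.66 (adjusted p = 0.0276). With median centring the Cy5 differences were close, at 0.46 for A_51_P337101 and 0.47 for A_52_P78183, and the pair was not tested in that setting. The gap between the probes thus depended on the normalization. The middle 30 bases of both are shown because the probes read differently in the main setting, and because A_52_P78183 has 26.7% G and C against 35.0% in A_51_P337101.
Rnf43 A_51_P337101: tgaaccagacagaaagatgcttgaatcagg
Rnf43 A_52_P78183: taatttgtttgcaaatttgttattcaaata

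Znrf3, the paralogue of Rnf43, had 1 probe. Its log2 ratio was 1.01, 1.03, 0.88, 0.68 and 1.30 with Fzd8-CRD and 0.18, 0.47, 1.10 and 1.50 in controls. The Fzd8-CRD arrays lay inside the range of the controls, where replicates 1 and 2 were low. The difference was 0.17 (SE 0.26, 95% interval -0.41 to 0.75, adjusted p = 0.679), and in Cy5 alone it was 0.76 (SE 0.28, adjusted p = 0.089). The Cy5 difference was 0.32 with median centring (limma, adjusted p = 0.482), and 0.97 without control replicate 4, where it passed (limma, adjusted p = 0.0481). The reference was 0.41 higher on the Fzd8-CRD arrays (adjusted p = 1.00e-04).

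Lgr5, the R-spondin receptor and a marker of several epithelial stem cells, had 2 probes with targets 11839 bases apart. Probe A_51_P218091 was well above background in Cy5 on all 9 arrays and gave log2 ratios of 0.52, 1.02, 0.34, 1.02 and 0.32 with Fzd8-CRD and 0.73, 0.82, 0.96 and 0.95 in controls. The Fzd8-CRD arrays lay on both sides of the controls. The difference was -0.22 (SE 0.18, 95% interval -0.62 to 0.18, adjusted p = 0.411), and in Cy5 alone it was 0.26 (adjusted p = 0.213). Its reference signal cleared background on 1 of 4 control and 0 of 5 Fzd8-CRD arrays. Probe A_52_P30169 was not well above background in Cy5 on any array. The middle 30 bases of each are shown because only the first gave a signal.
Lgr5 A_51_P218091: catttgttcagctaagaaggaaagccatca
Lgr5 A_52_P30169: atagaaacttgtgtgtaaaatacagatgta

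Of the transcription factors, Lef1 had 3 probes, and the 2 tested ones disagreed. On A_51_P501145 the log2 ratio was -2.85, -3.05, -2.92, -3.04 and -2.62 with Fzd8-CRD and -2.19, -1.20, -2.47 and -2.65 in controls. Control replicate 2 was the highest, and Fzd8-CRD replicate 5 lay just above control replicate 4. The means were -2.90 ± 0.17 (SD, n = 5) and -2.13 ± 0.65 (SD, n = 4), a difference of -0.77 (SE 0.27, 95% interval -1.37 to -0.17, adjusted p = 0.0823). On A_51_P420400 the log2 ratio was -1.59, -1.45, -1.35, -1.70 and -1.16 with Fzd8-CRD and -1.69, -0.22, -2.00 and -2.03 in controls, a difference of 0.035 (SE 0.34, 95% interval -0.73 to 0.80, adjusted p = 0.955). Control replicate 2 was the highest in the log2 ratio for every marker list. Without it, the differences were -0.46 (adjusted p = 0.0607) for A_51_P501145 and 0.46 (adjusted p = 0.0651) for A_51_P420400.

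The Lef1 probes moved in opposite directions in the reference channel, and both were lower in the tumour channel without passing there. Log2 Cy3 of A_51_P501145 was 10.12 to 10.46 with Fzd8-CRD and 9.46 to 9.54 in controls, 0.77 higher (adjusted p = 1.13e-06), whereas that of A_51_P420400 was 8.58 to 8.80 with Fzd8-CRD and 8.88 to 9.04 in controls, a difference of -0.26 (adjusted p = 0.00145). The groups were apart in Cy3 for both, in opposite directions. Log2 Cy5 of A_51_P501145 was 6.66 to 6.96 with Fzd8-CRD and 6.91 to 7.68 in controls, a difference of -0.42 (adjusted p = 0.0969). For A_51_P420400 it was 6.68 to 6.89 with Fzd8-CRD and 6.97 to 8.04 in controls, groups that were apart, with a difference of -0.55 (SE 0.21, adjusted p = 0.0940). Both Cy5 differences were smaller without control replicate 2, at -0.26 (adjusted p = 0.145) and -0.31 (adjusted p = 0.0754). In this dye both probes cleared background on all 4 controls. With Fzd8-CRD, A_51_P501145 did so on 2 of 5 arrays and A_51_P420400 on 3 of 5. These Cy5 differences therefore compare a fully detected group with a partly dim one. The probes differed in their group difference by -0.80 in the ratio (exact permutation, p = 0.00794, adjusted p = 0.0159 over 4 pairs) and by 0.13 in Cy5 (exact permutation, adjusted p = 0.103).

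**Figure D3:**
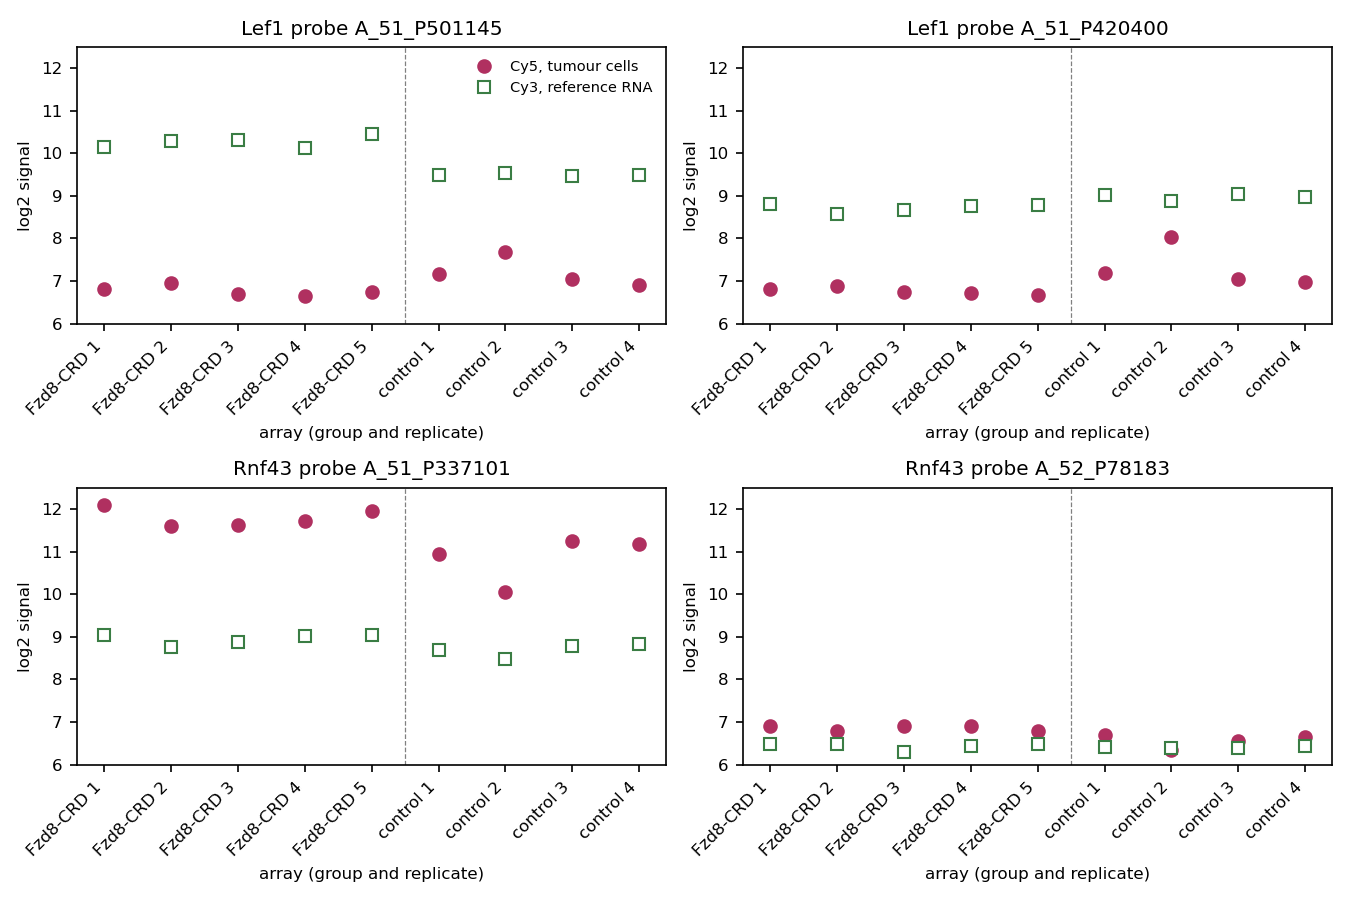
Log2 signal of each dye on each array for the tested Lef1 and Rnf43 probes, with filled circles for Cy5 (tumour cells), open squares for Cy3 (reference) and a dashed line between the groups. The Lef1 probe A_51_P501145 steps in Cy3 between 9.54 and 10.12 at that line, and the Rnf43 probe A_51_P337101 steps in Cy5 between 11.26 and 11.60.

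The Lef1 probes lie at different places in the gene, and their middle 30 bases are shown for that reason. By the array's own coordinates the 60 bases of A_51_P420400 run over a genomic extent of 18162 bases. A_52_P333110 lies 106980 bases upstream of A_51_P501145. The positions of exons were not available. A_52_P333110 was not well above background in either dye on any array.
Lef1 A_51_P501145: ccgattagtgggaatttatgccagttgtta
Lef1 A_51_P420400: tgacagctgcctacatctgaaacatggtgg
Lef1 A_52_P333110: aaaggtcaacaaatagtcttttccaatcaa

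Tcf7, the T cell factor that also acts in epithelium, had 2 tested probes with targets 717 bases apart. On A_52_P244702 the log2 ratio was -0.39, -0.52, 0.09, 0.76 and 0.38 with Fzd8-CRD and -0.77, -0.39, 0.02 and 0.08 in controls, a difference of 0.33 (SE 0.29, adjusted p = 0.447). On A_52_P244711 it was -0.85, -0.94, -0.41, 0.06 and 0.19 with Fzd8-CRD and -0.88, -0.51, -0.09 and 0.03 in controls, a difference of -0.02 (SE 0.28, adjusted p = 0.963). Fzd8-CRD replicates 1 and 2 were low and 4 and 5 high on both probes, so the spread within the group exceeded the difference between groups. Control replicate 2, the highest in the log2 ratio for every marker list, lay at -0.39 and -0.51, within the range of the other arrays. The part of the cell mixture in the Tcf7 values was not tested.

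In Cy5 alone Tcf7 probe A_52_P244702 was 9.53, 9.56, 10.26, 10.73 and 10.66 with Fzd8-CRD and 8.75, 8.80, 9.48 and 9.57 in controls. Control replicate 4 lay above Fzd8-CRD replicates 1 and 2, so the groups overlapped. The difference was 1.00 (SE 0.31, 95% interval 0.31 to 1.69, adjusted p = 0.0518), just outside the threshold, and with a normexp offset of 16 it was 1.05 and passed (adjusted p = 0.0444), whereas with median centring it was 0.54 (adjusted p = 0.309). A_52_P244711 differed by 0.55 in Cy5 (adjusted p = 0.242). The reference was higher on the Fzd8-CRD arrays for both, by 0.51 (adjusted p = 2.86e-06) and 0.45 (adjusted p = 6.21e-05). The probes differed in their group difference by 0.35 in the ratio (exact permutation, p = 0.0159, adjusted p = 0.0212) and by 0.45 in Cy5 (exact permutation, adjusted p = 0.0159). The fourth pair, that of Nkd2, differed by 0.57 in the ratio and did not pass (exact permutation, p = 0.0635, adjusted p = 0.0635).

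**Figure D4:**
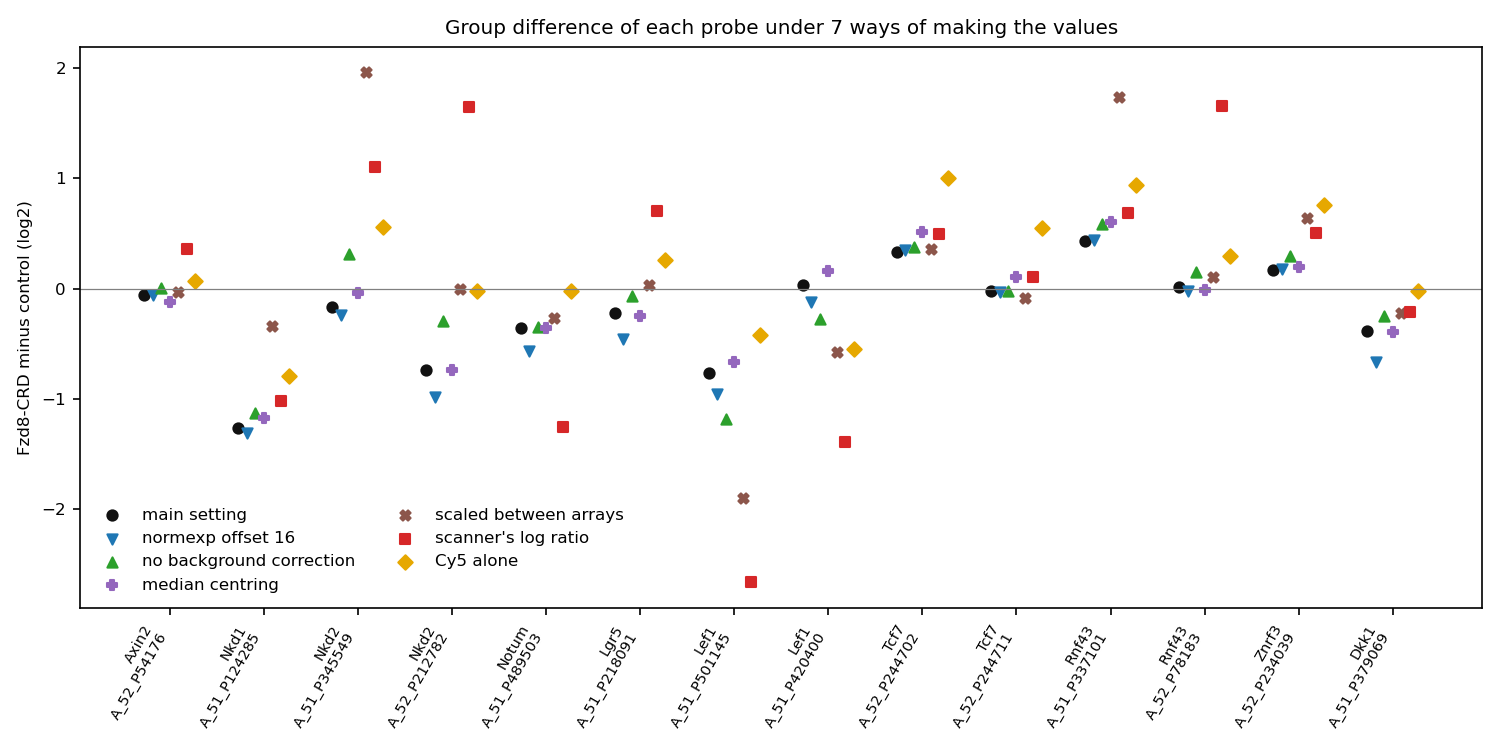
Difference between the groups (Fzd8-CRD minus control, log2) of each tested probe under 7 ways of making the values, with 1 symbol per way. Both Nkd2 probes lie below 0 in the main setting and at 1.65 and 1.10 with the scanner's log ratio, and the Lef1 probe A_51_P501145 ranges from -0.42 in Cy5 alone to -2.66 with the scanner's log ratio.

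Several member differences depended on how the ratio was made. With the scanner's log ratio 4 of 14 member probes passed, where 14% of all probes were called. They were both Nkd2 probes, Rnf43 A_52_P78183 and Lef1 A_51_P501145, the last at -2.66 (adjusted p = 0.00704). The Cy5 signal behind this Lef1 ratio cleared background on all 4 controls but only 2 of 5 Fzd8-CRD arrays. Without background correction Lef1 A_51_P501145 (-1.18, adjusted p = 0.0254) and Rnf43 A_51_P337101 (0.58, adjusted p = 0.0419) passed, where 14.4% of all probes were called. With array weights, which let arrays that stand apart count less, 35.2% of all probes and 6 of 14 member probes passed. These were Nkd1 (-1.92, adjusted p = 0.00089), Nkd2 A_52_P212782 (-1.09, adjusted p = 0.00433), Notum (-0.44, adjusted p = 0.0182), Dkk1 (-0.47, adjusted p = 0.0246), Lef1 A_51_P501145 (-0.41, adjusted p = 0.0478) and, in the opposite direction, Lef1 A_51_P420400 (0.48, adjusted p just under 0.05). The median member difference was 0.43 with the scanner's log ratio and -0.11 in the main setting, while the median of all probes lay at 0.00 and -0.06. Across the alternatives run on the ratio, the differences of Nkd1, Notum, Lef1 A_51_P501145, Tcf7 A_52_P244702, Rnf43 A_51_P337101 and Dkk1 kept their sign. In Cy5 alone Notum and Dkk1 lay near 0 and took either sign among its alternatives, at 0.017 and 0.12 with median centring.

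Other genes of the pathway were read from a list of 40 Wnt/beta-catenin targets and genes linked to that pathway. Of these, 35 were measured, each by its brightest probe. Of the 35, 1 rose and 4 fell, where 14.8% of the 18269 genes tested were called, 6.85% higher and 7.99% lower. The median difference was -0.18, against -0.07 over all genes tested. Twist1, a factor of the mesenchymal programme, rose by 0.99 (SE 0.18, adjusted p = 0.0095), from -0.04 to 0.60 in controls to 1.16 to 1.77 with Fzd8-CRD. The secreted inhibitor Dkk2 and the protease Mmp7 fell: neither was well above background in Cy5 on any Fzd8-CRD array, and both were on all 4 controls. In the ratio Dkk2 fell by 1.29 (SE 0.16, adjusted p = 0.00329) and Mmp7 fell by 0.81 (SE 0.11, adjusted p = 0.00385). The filter kept both for testing through the control arrays alone, the group where they were brighter. Their p-values in the ratio and in Cy5, and their place among the 4 that fell, carry that selection. The quantile-normalized Cy5 signal was at least 2.20-fold lower with Fzd8-CRD for Dkk2 (Cy5 adjusted p = 0.00345) and at least 1.39-fold lower for Mmp7 (Cy5 adjusted p = 0.0172).

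Procr, a surface receptor for protein C, fell by 1.20 (SE 0.31, adjusted p = 0.0326), and Birc5, which acts in cell division, fell by 1.33 (SE 0.38, adjusted p = 0.0451), with groups that overlapped for Birc5. Of the preset names, Tnfrsf19 differed by -1.20 (adjusted p = 0.0736), Ccnd1 by -1.01 (adjusted p = 0.0719), Lgr6 by -0.80 (adjusted p = 0.147), Apcdd1 by -0.70 (adjusted p = 0.171), Lgr4 by 0.42 (adjusted p = 0.449) and Myc by 0.17 (adjusted p = 0.453). In Cy5 alone the median difference of the 35 was -0.035, and 1 rose (Twist1) and 5 fell, where 18.6% of genes were called. The 5 were Dkk2, Mmp7, Ccnd1 (-1.30, adjusted p = 0.0249), Tnfrsf19 (-1.30, adjusted p = 0.0440) and Ccn5 (-0.79, adjusted p = 0.0226), the last named after its values were seen. Here too Dkk2 and Mmp7 were kept for testing through the control arrays alone. Sp5 was not tested, because it was well above background on too few arrays. The transgene genes Wnt1 and Erbb2 differed by -0.23 (adjusted p = 0.794) and 0.37 (adjusted p = 0.110) in the ratio. In Cy5 alone Erbb2 rose by 0.77 (adjusted p = 0.00928), while Wnt1 differed by 0.11 (adjusted p = 0.871).

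For member probes well above background in Cy5 on all 9 arrays, the genes with the most similar log2 ratio over the 9 arrays were found among 18190 genes, as a description only. All arrays share the reference design, and the groups differ in slide. For Nkd1 they were Cabs1 (Pearson r = 0.991) and the transcript TC1652077 (r = 0.986). For Nkd2 probe A_52_P212782 they were Lgr6 (r = 0.981) and Hmg20b (r = 0.976), and for A_51_P345549 Ccl21a (r = 0.966) and Trim12a (r = 0.956). For Lgr5 they were Rab43 (r = 0.929) and Taf4b (r = 0.926), and for Znrf3 Psd3 (r = 0.963) and Ralgps2 (r = 0.959). For Rnf43 they were Clasrp (r = 0.984) and Slc26a11 (r = 0.972), which were lower without control replicate 2 (r = 0.955 and r = 0.925). For Tcf7 they were Vash2 (r = 0.963) and Wnt11 (r = 0.955) with A_52_P244702, and Lrrc8c (r = 0.976) and Rab6a (r = 0.964) with A_52_P244711.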

How the data were processed

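Expression was measured on 9 dual-colour Agilent arrays, 5 Fzd8-CRD and 4 control, grouped by the treatment label. Per the file headers, Agilent Feature Extraction 9.5.3.1 made the spot intensity values and the log10 ratio of Cy5 to Cy3. The authors' deposited values are a linear ratio per array (median 0.833 to 0.954). Against the scanner's values its log2 correlated at 1.00, so scale and direction are known. Intensities were corrected with normexp (offset 50), ratios were normalized by loess in limma 3.58.1 (R 4.3.3), and 1229 outlier spots were left out. The offset understates differences of dim probes. Spots of 1 probe were averaged, and 26835 of 41174 probes, those whose Cy5 signal cleared background on 4 or more arrays, were fitted with limma (lmFit, eBayes), with Benjamini-Hochberg adjustment and a threshold of 0.05. Each dye alone was quantile-normalized and fitted likewise. Probe pairs of 1 gene were compared by an exact permutation over all splits of the arrays. Bounds given as at least N-fold compare group means of quantile-normalized Cy5, each dim array at its own signal or, where higher, at the lowest signal well above background on that array. With loess and Aquantile normalization instead they were larger (2.38-fold for Dkk2 and 1.53-fold for Mmp7). They hold no spread between arrays and are open to dye bias.

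Named were all 10 members with every probe, 7 preset targets and each other gene of the pathway list past the threshold. Also named were Wnt1, Erbb2, and the 2 most similar genes of each member probe well above background on all arrays. The members and lists were chosen with earlier results of these data known. The fit was tested on simulated data. Alternatives covered background, normalization, the scanner's ratio, the deposited ratios, each dye, filters, array weights, slide and scan day blocks, averaged close pairs and left-out replicates. Nothing in the labels ties replicate numbers across groups. The number of arrays limits the precision.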

Additional observations from a re-analysis of the deposited data

Results flagged for a closer look

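Each member probe was checked for an array far from the others of its group, in groups of 4 and 5 arrays. Of 36 such groups 1 stood out, where chance gives about 1 in 20. On the second Rnf43 probe, A_52_P78183, Fzd8-CRD replicate 5 had a log2 ratio of 0.094, and the nearest of the other Fzd8-CRD arrays was at 0.31. It was the only Fzd8-CRD array on which this probe was not well above background in Cy5. In Cy3 the probe cleared background on 0 of 5 Fzd8-CRD arrays, so this ratio compares 2 signals near background. The same array was not the lowest for the other Rnf43 probe, A_51_P337101, at 2.91 against 2.89 on Fzd8-CRD replicate 3.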

How the results depend on the processing

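The members' count past the threshold was 0 in the main setting, 2 with background left in, 4 with ratios from the scanner, 4 with the deposited table, 1 in Cy5 alone, 6 with array weights and 4 with slide or scan day as a random block. It lay between 0 and 2 when single replicates were left out. In Cy5 alone it was 2 with a normexp offset of 16, 2 with no filter, and 0 to 2 without single replicates. The other listed pathway genes past the threshold numbered 2 with median centring, 14 with array weights, 11 with slide and 12 with scan day as a block, 2 with close pairs averaged, and 3 to 6 without single replicates. All probes called numbered 991 with median centring, 9450 with array weights, 8049 with slide and 8468 with scan day as a block, 504 with close pairs averaged, and 1892 to 4628 without single replicates. They numbered 3923 in the main setting, 3860 with background left in, 3761 with ratios from the scanner, 3681 with the deposited table and 4620 in Cy5 alone. The counts in Cy3 alone (7 to 9) and of differing probe pairs (2 to 4) stayed near the main ones. Quantile normalization of mean intensity leaves ratios as they are.

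Among the alternatives of the ratio, with Cy5 alone counted in its main setting, signs turned for 8 of the 14 probes. With the scanner's log ratio, and equally with the deposited table, the differences were 0.36 for Axin2, 1.10 and 1.65 for Nkd2 A_51_P345549 and A_52_P212782, 0.70 for Lgr5, -1.39 for Lef1 A_51_P420400 and 0.11 for Tcf7 A_52_P244711. In Cy5 alone they were 0.074 for Axin2, 0.56 for Nkd2 A_51_P345549, 0.26 for Lgr5, -0.55 for Lef1 A_51_P420400 and 0.55 for Tcf7 A_52_P244711. Scaled between arrays they were 1.96 and 0.00053 for Nkd2, 0.032 for Lgr5 and -0.57 for Lef1 A_51_P420400. Without background correction they were 0.0061 for Axin2, 0.31 for Nkd2 A_51_P345549 and -0.27 for Lef1 A_51_P420400. A normexp offset of 16 gave -0.12 for Lef1 A_51_P420400 and -0.017 for Rnf43 A_52_P78183, and median centring gave 0.10 for Tcf7 A_52_P244711 and -0.014 for Rnf43 A_52_P78183. Array weights gave -0.039 for Rnf43 A_52_P78183 and -0.15 for Znrf3, scan day as a block 0.019 for Tcf7 A_52_P244711, and close pairs averaged 0.033 for Axin2, -0.12 for Lef1 A_51_P420400 and 0.21 for Tcf7 A_52_P244711. Without single replicates the differences ran from -0.17 to 0.065 for Axin2, -0.47 to 0.0020 for Nkd2 A_51_P345549, -0.15 to 0.46 for Lef1 A_51_P420400, -0.20 to 0.11 for Tcf7 A_52_P244711, -0.080 to 0.065 for Rnf43 A_52_P78183 and -0.042 to 0.40 for Znrf3. The cause was not tested.

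No paired analysis was possible because the replicate numbers follow the order of deposit and pair no arrays. With 5 and 4 arrays on separate slides, and Axin2, Dkk1, Notum and Lef1 well above background in Cy5 on only some arrays, small differences were not detectable. For the tested probes of Notum and Lef1 the arrays dim in Cy5 were all in the Fzd8-CRD group.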
